A study of Homo sapiens with 6 samples.

Results

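The genes described are 36 human genes of nucleotide excision repair, base excision repair, single-strand break repair, translesion synthesis and direct damage reversal, selected by symbol from the 20020 genes of a count table. All 36 were listed in the table, and all 36 passed the filter on low counts with 12925 genes in all. RNA-seq was performed on HCT116 cells, a human colorectal carcinoma line, 24 h after ionizing radiation (IR) of 8 Gy. There were 3 libraries of CAD-KO2+IR, from stable cells made with lentiCRISPRv2 (a plasmid that carries Cas9 and a guide RNA) and a guide against CAD, and 3 libraries of sgVec+IR, the vector control. CAD is caspase-activated DNase, the nuclease that cuts DNA in apoptosis, and it is encoded by the gene DFFB. The CAD-KO2 guide of 20 bases read gtgcctgtacgaggatggca. Both groups were irradiated, so the comparison asks how CAD knockout differed from control after IR, and the response to IR itself was not measured. Only 1 knockout line was sequenced, and the sources used here do not say whether it was a clone or a pool, or whether the 3 libraries of a group came from separate cultures. The p-values therefore measure the spread between these libraries, which may be technical.

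Nucleotide excision repair (NER) removes bulky, helix-distorting lesions: damage sensors or a stalled RNA polymerase mark the site, the TFIIH complex opens the helix, and nucleases on either side of the lesion release the damaged strand. Base excision repair (BER) handles small base lesions such as the oxidized bases that IR leaves behind: a glycosylase cuts out the base, an endonuclease nicks the abasic site, and a polymerase and a ligase fill and seal the gap. Translesion polymerases copy past lesions that have not been removed, and direct reversal enzymes take off an alkyl group without cutting the strand.

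A gene was called where its adjusted p was under 0.05 and its level differed at least 1.5-fold (quasi-likelihood test of edgeR, Benjamini-Hochberg over all 12925 genes tested). No member was called, and 0.0309% of all genes were, 4 in number. MGMT, the O6-methylguanine-DNA methyltransferase that removes alkyl groups from guanine, was the only member with an unadjusted p under 0.05 (2.78% of members, against 2.85% of all genes tested). Its level was 0.638 times that of sgVec+IR. The log2 fold changes of CAD-KO2+IR over sgVec+IR ranged from -0.65 for MGMT to 0.24 for PARP2, with 15 members above 0 and 21 below. Their median was -0.03, beside -0.01 over all genes tested. DESeq2 also called 0 members (0.364% of all genes were called with it) and gave 1 member, MGMT, an unadjusted p under 0.05, against 3.21% of all genes. In 4 members (UNG, LIG3, APTX and MGMT; 11.1%) every CAD-KO2+IR library lay below every sgVec+IR library, against 5.01% of all genes, and in 1 member (RAD23B; 2.78%) every one lay above, against 5.23%. The 95% interval of the fold change lay within a 2-fold change either way for 25 members and within a 1.5-fold change for 8. Over all 12925 genes tested these numbers were 7796 and 2426.

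**Figure D1:**
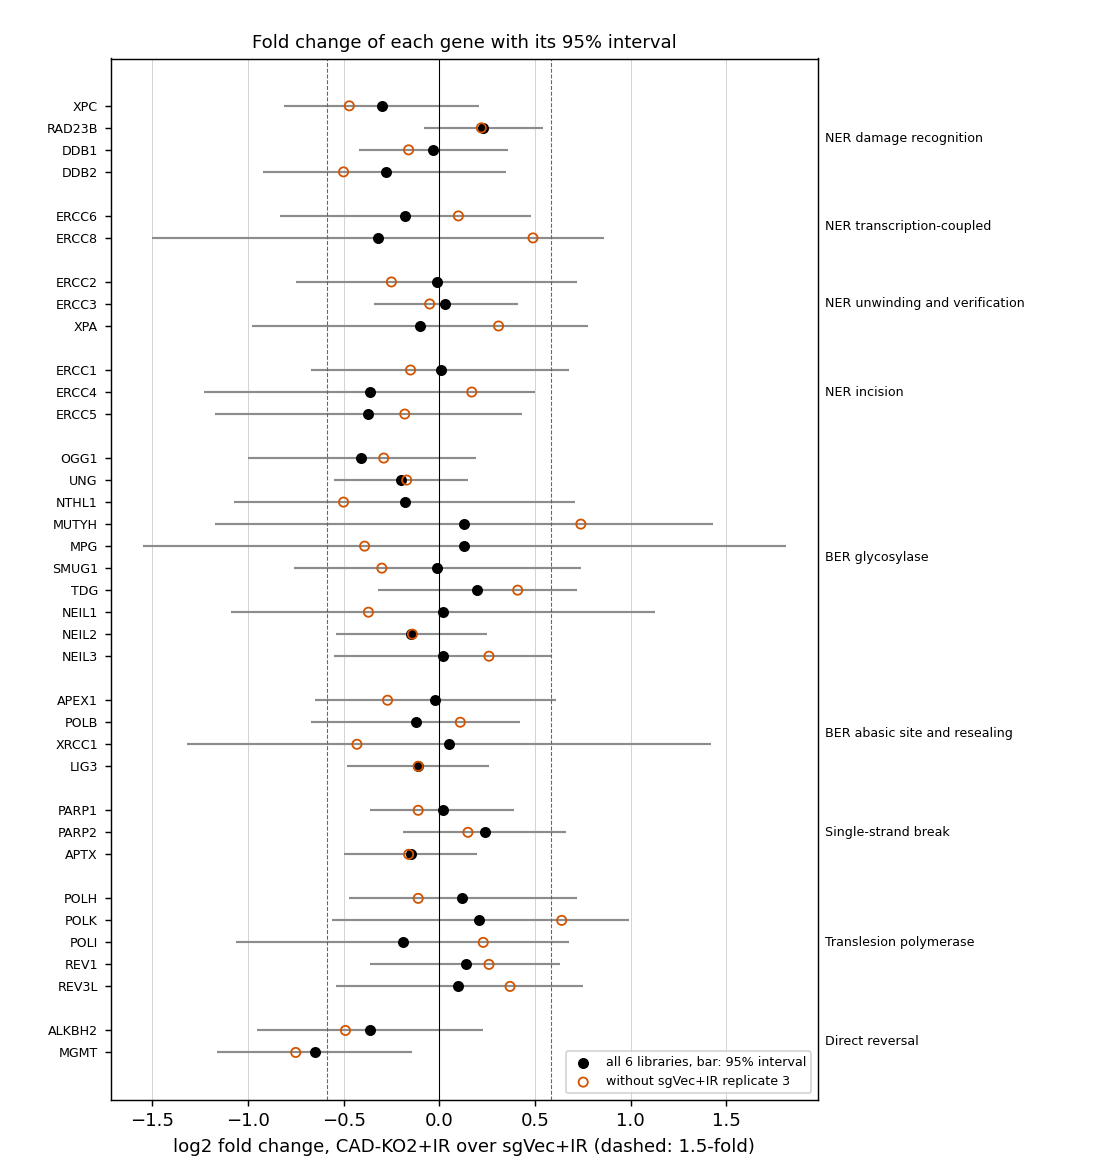
Log2 fold change of CAD-KO2+IR over sgVec+IR for the 36 genes, grouped by role, from edgeR. Filled points with bars are the estimates and 95% intervals from all 6 libraries, and open circles are the estimates without sgVec+IR replicate 3. Only the interval of MGMT leaves out 0. Without that library 13 of the 36 genes change sign, as do 4838 of all 12925 genes tested.

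Total counts per library ran from 14032994 to 19574144, and the 36 genes took between 0.278% and 0.323% of them. DFFB, the targeted gene, measured 10, 10.1 and 12.4 CPM in CAD-KO2+IR and 21.8, 22.9 and 20.9 CPM in sgVec+IR (CPM, counts scaled to the library size by TMM), a log2 fold change of -1.02 (SE 0.193) with an adjusted p of 0.55 in edgeR. Its groups did not overlap. These are RNA levels and do not give CAD protein, and the paper checked the construction of its stable HCT116 lines by western blot. All 6 epithelial markers were detected, with a summed level of 2790 to 3980 CPM in CAD-KO2+IR and 2090 to 4070 CPM in sgVec+IR, and all 6 leukocyte markers stayed under 1 CPM in every library. Of 6 fibroblast markers, DCN and LUM were at 0 in every library, and the sum was 25.9 to 39.8 CPM in CAD-KO2+IR and 12 to 48.9 CPM in sgVec+IR. In all, 3 of the 6 stayed under 1 CPM in every library, and the highest value of a single marker was 47.8 CPM. The sum of 4 endothelial markers was 1 to 2.22 CPM in CAD-KO2+IR and 4.16 to 6.07 CPM in sgVec+IR, and its part in the results was not tested. Of these 4 markers, 2 stayed under 1 CPM in every library, and the highest value of a single marker was 5.15 CPM. All libraries were of HCT116 cells, so these sums give RNA levels and were not read as shares of other cell types.

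A pair of libraries stood apart from the rest of their groups, and the members showed it as all genes did. Genes with a count of 0 numbered 7561 in sgVec+IR replicate 3, 5232 in CAD-KO2+IR replicate 2 and 4577 to 4709 in the other libraries. Between sgVec+IR replicates 1 and 2 the median absolute log2 difference in level over the members was 0.122, but replicate 3 differed from their mean by 0.617 (all genes tested, 0.0953 and 0.717). Between CAD-KO2+IR replicates 1 and 3 it was 0.0842, and replicate 2 differed from their mean by 0.323 (all genes tested, 0.11 and 0.369). In sgVec+IR replicate 3, 5 members lay more than 2-fold below the mean of replicates 1 and 2: the glycosylase MPG at 0.117 times, the scaffold XRCC1 at 0.16 times and the glycosylases NEIL1, NTHL1 and SMUG1 at 0.296, 0.411 and 0.454 times. Another 4 lay at least 2-fold above it: ERCC8 at 3.22 times, ERCC4 at 2.32 times, MUTYH at 2.08 times and POLK at 2 times. Over all 12925 genes tested, 3150 lay more than 2-fold below it and 1242 more than 2-fold above. These differences followed the GC content of the transcripts. Across the 36 members the Spearman correlation between GC content and the difference was -0.741 in sgVec+IR replicate 3 and -0.809 in CAD-KO2+IR replicate 2 (all genes tested, -0.732 and -0.82). Genes of 1 library share its preparation and are not independent, so these values are descriptions. Between GC content and the log2 fold change of the groups the correlation was -0.0898 (all genes tested, -0.0092). Each group held 1 library with this trend, so a value near 0 does not show that single fold changes are free of it. Fold changes without these libraries and with a correction for GC content are given beside the results.

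Leaving out sgVec+IR replicate 3 gave 6 members an unadjusted p under 0.05 in edgeR (16.7%, against 11.9% of all genes tested): MGMT, XPC, DDB2 and XRCC1 were lower and POLK and TDG were higher in CAD-KO2+IR. None of the 6 had an adjusted p under 0.05, and the lowest, that of MGMT, was 0.271. The median log2 fold change of the members was then -0.13. Without this library the groups did not overlap in 15 members that were lower (41.7%, against 23.7% of all genes) and 7 that were higher (19.4%, against 22%). Leaving out both libraries that stood apart, which left 2 against 2, gave 9 members an adjusted p under 0.05 in edgeR (25%, against 16.2% of all genes tested): DDB2, XPC, MGMT, ALKBH2, APEX1 and NTHL1 were lower and POLK, TDG and RAD23B were higher. Of these 9, MGMT alone also passed the 1.5-fold limit (3.37% of all genes did). The libraries left out in this fit were chosen after the data were seen, which narrows the spread within groups. Its p-values, here and below, are therefore descriptions. In this fit 13 members had an unadjusted p under 0.05 (29.7% of all genes), and the groups did not overlap in 17 members that were lower (47.2%, against 29.5% of all genes) and 7 that were higher (19.4%, against 27.9%). Down-weighting variable libraries in limma-voom gave 8 members an adjusted p under 0.05 (22.2%, against 22.3% of all genes tested), which is near the background, and 14 members an unadjusted p under 0.05 (37.1% of all genes). These 8 were the same as the 9 above without RAD23B, and MGMT alone passed the 1.5-fold limit (5.15% of all genes did). The weights of sgVec+IR replicate 3 and CAD-KO2+IR replicate 2 were 0.0404 and 0.154, and those of the other libraries ran from 1.79 to 6.75. The weighted fit thus rested mostly on the same libraries as the fit of 2 against 2, and the shared list is not a separate result. With all 6 libraries and a correction for GC content, edgeR gave 5 members an unadjusted p under 0.05 (9.92% of all genes), of which MGMT, XPC and ALKBH2 were lower and POLK and TDG higher, and 0 an adjusted p under 0.05. With the replicate number as a block no member had an unadjusted p under 0.05 (1.13% of all genes).

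The promoter sequence is shown for MGMT, the member with the smallest p with all libraries, and for DDB2, the member with the smallest adjusted p in the fit of 2 against 2. Both were chosen after their values were seen. The stretch starts 250 bases upstream of the RefSeq start (GRCh38.p14) and is written 5′ to 3′ in the direction of the gene, with CpG dinucleotides, the sites at which DNA is methylated, in capitals. The annotations place the start of MGMT differently: the last 57 of its 250 bases lie inside the gene as GENCODE gives it and are left out, so 193 bases are shown, at chr10:129466991-129467183. For DDB2 all 250 bases are shown, at chr11:47214204-47214453. Both are on the forward strand.
MGMT: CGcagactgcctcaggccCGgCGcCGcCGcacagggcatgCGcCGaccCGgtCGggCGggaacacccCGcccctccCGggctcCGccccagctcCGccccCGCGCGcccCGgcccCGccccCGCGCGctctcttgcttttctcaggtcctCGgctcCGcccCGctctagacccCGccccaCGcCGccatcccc
DDB2: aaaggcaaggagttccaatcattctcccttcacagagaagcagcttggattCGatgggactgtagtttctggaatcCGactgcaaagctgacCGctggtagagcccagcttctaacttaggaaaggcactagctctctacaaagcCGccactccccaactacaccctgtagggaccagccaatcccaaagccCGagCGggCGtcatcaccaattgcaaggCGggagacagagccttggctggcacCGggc

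The promoters were unlike in base composition. The 250 bases in front of the RefSeq start held 36 CpG for MGMT, as many as or more than in 96.1% of the 27305 RefSeq promoters, and 9 for DDB2 (48.1%). For XPC they held 24 (78.7%), but 182 of these bases lie inside the XPC gene of GENCODE. The median was 11 over all promoters and 22 over the 33 members with a promoter sequence, whose counts ran from 3 to 42. DNA methylation, which is known to silence MGMT in tumours, was not measured. GGGCGG, the core of the GC box bound by Sp1, was searched on both strands of a window from 250 bases upstream to 50 downstream of each start and was found in 25 of 33 members (75.8%) and in 44.6% of all promoters. In the 250 bases of MGMT it occurred 8 times and in those of DDB2 0 times. The median GC content of the windows searched was 64.3% in the members and 58.3% over all promoters, and its part in these shares was not tested. CCAAT, the core of the CCAAT box, was found in 12 members (36.4%) and 35.7% of all promoters, with 3 copies in the 250 bases of DDB2. A decamer of the p53 consensus was found in 1 member, UNG (3.03%, against 6.54% of all promoters), and a tandem pair in none of the members (0.0293% of all promoters). A match describes the letters of this window only and is not evidence of binding.

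Among the 4 damage recognition genes of NER, the fold changes went both ways. XPC, which binds the distorted helix and starts repair of the whole genome (chr3:14145147-14178783 of GRCh38), measured 57.2, 48.2 and 53.1 CPM in CAD-KO2+IR and 73.8, 73.1 and 47.9 CPM in sgVec+IR. Replicates 1 and 2 of sgVec+IR were the 2 highest libraries, but replicate 3 was the lowest of all 6, so the groups overlapped. For XPC the log2 fold change was -0.30 (SE 0.217, unadjusted p = 0.212, adjusted p = 1 in edgeR), -0.47 without sgVec+IR replicate 3 (adjusted p = 0.374) and -0.41 in the fit of 2 against 2 (adjusted p = 0.000147).

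DDB2, the damaged-DNA binding subunit that finds ultraviolet lesions and is a known p53 target, lies at chr11:47214465-47239240. It measured 108, 77.8 and 106 CPM in CAD-KO2+IR and 130, 146 and 78.6 CPM in sgVec+IR, with the lowest levels in CAD-KO2+IR replicate 2 and sgVec+IR replicate 3, so the groups overlapped. The log2 fold change was -0.28 (SE 0.267, adjusted p = 1 in edgeR), -0.50 without that library (adjusted p = 0.399) and -0.36 in the fit of 2 against 2 (adjusted p = 9.55e-05). With the correction for GC content DDB2 had an unadjusted p of 0.102. DDB1, the adaptor that joins DDB2 to the CUL4 ubiquitin ligase, measured 608, 510 and 587 CPM in CAD-KO2+IR and 639, 629 and 476 CPM in sgVec+IR. These were the highest CPM among the members, the groups overlapped, and its log2 fold change was -0.03. Per kilobase of exon, DDB1 stood at 1.98, 2.3 and 1.94 times DDB2 in CAD-KO2+IR and at 1.72, 1.51 and 2.12 times in sgVec+IR.

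RAD23B, which stabilizes XPC, was the member whose CAD-KO2+IR libraries all lay above the control (chr9:107283137-107332194). It measured 410, 454 and 391 CPM in CAD-KO2+IR and 376, 343 and 354 CPM in sgVec+IR. Its log2 fold change of 0.23 (SE 0.132, adjusted p = 1 in edgeR) changed little without sgVec+IR replicate 3 (0.22) and ran from 0.17 to 0.28 over the fits that left out each library in turn. In the fit of 2 against 2 it was 0.16 with an adjusted p of 0.0375. Per kilobase of exon, RAD23B exceeded XPC 7.46-, 9.79- and 7.67-fold in CAD-KO2+IR and 5.29-, 4.88- and 7.68-fold in sgVec+IR, where replicate 3 was again within the range of CAD-KO2+IR.

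**Figure D2:**
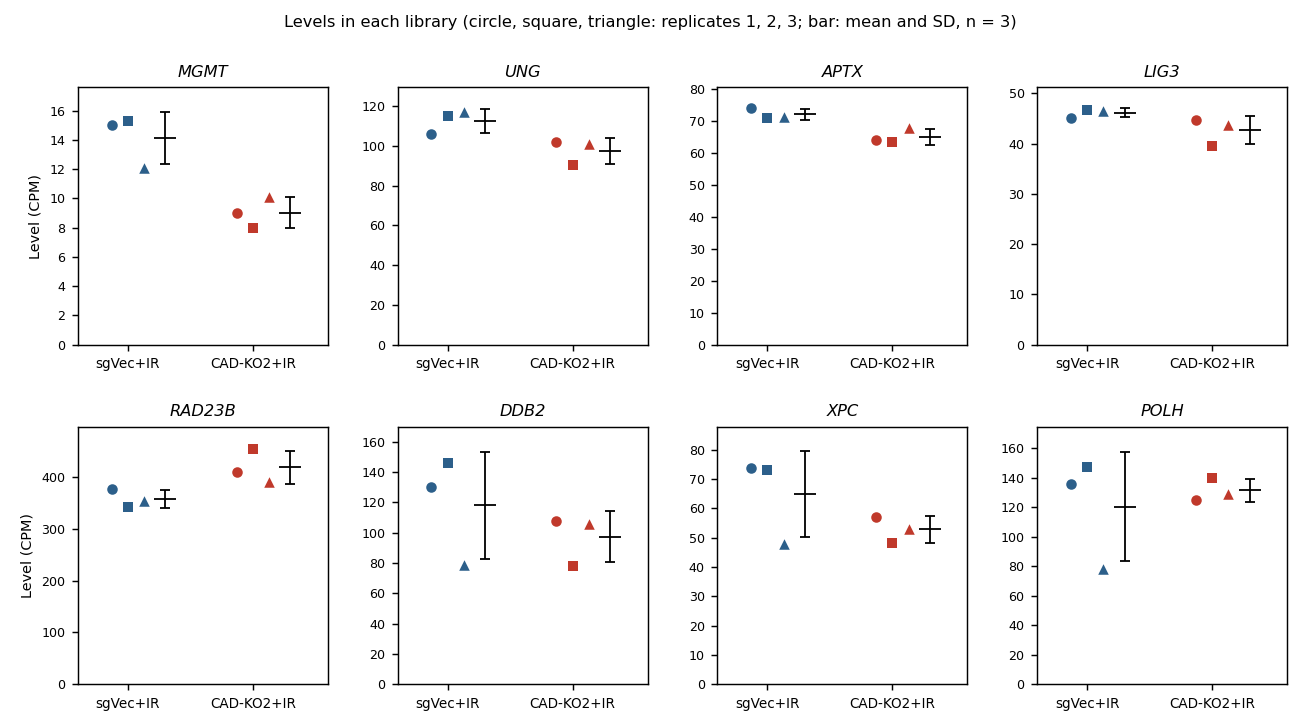
Level in CPM of 8 members in each library (circles, squares and triangles are replicates 1, 2 and 3; blue, sgVec+IR; red, CAD-KO2+IR) with the mean and SD of each group (n = 3). The groups do not overlap for MGMT, UNG, APTX, LIG3 and RAD23B, and for DDB2, XPC and POLH the sgVec+IR replicate 3 lies far below replicates 1 and 2.

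The transcription-coupled branch of NER depends on ERCC8 and ERCC6 (CSA and CSB), which act at RNA polymerase stalled by damage. ERCC8 measured 25.5, 37.4 and 24.9 CPM in CAD-KO2+IR and 22.9, 19.0 and 68.6 CPM in sgVec+IR, so its direction rested on 1 library. Its log2 fold change was -0.32 with all libraries and 0.49 without sgVec+IR replicate 3, and neither passed the test (unadjusted p = 0.538 and 0.0656 in edgeR). ERCC6 turned in the same way, from -0.18 to 0.10, but was -0.09 in the fit of 2 against 2 and -0.03 with down-weighted libraries. ERCC8 was 0.27 in the fit of 2 against 2.

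No gene for unwinding and verification passed the test with all libraries. Log2 fold changes were -0.01 for ERCC2 and 0.03 for ERCC3, the helicases of TFIIH, and -0.10 for XPA, which checks the lesion and holds the nucleases in place. ERCC3 was the most even of them, at 107 ± 4.85 CPM in CAD-KO2+IR (SD, n = 3) against 105 ± 12.3 CPM in sgVec+IR, with a 95% interval of -0.34 to 0.41 on the log2 scale. For ERCC2 the interval ran from -0.75 to 0.72 and for XPA from -0.98 to 0.78, and a change of 1.5-fold either way was not detectable at this spread. Without sgVec+IR replicate 3 the log2 fold change of ERCC2 was -0.25, that of ERCC3 -0.05 and that of XPA 0.31. In the fit of 2 against 2 these were -0.05, -0.01 and 0.08.

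Of the incision nucleases, ERCC1 and ERCC4 (XPF), which form a heterodimer that cuts 5′ of the lesion, averaged 40.0 ± 12.2 and 19.4 ± 1.15 CPM (SD, n = 3) in CAD-KO2+IR and 39.8 ± 8.17 and 25.0 ± 13.5 CPM in sgVec+IR. Per kilobase of exon, the ratio of ERCC1 to ERCC4 was 4.3, 2.07 and 3.14 in CAD-KO2+IR and 3.69, 4.18 and 1.14 in sgVec+IR. The lowest ratio of each group came from the library that stood apart in it, and ERCC1 has a GC content of 56.1% and ERCC4 of 39.9%. ERCC5 (XPG), which cuts on the 3′ side, was among the least abundant members, at 2.72 ± 0.657 CPM against 3.54 ± 0.832 CPM, with a log2 fold change of -0.37 (SE 0.339). It shares exons on the same strand with BIVM and with the readthrough gene BIVM-ERCC5, so reads of ERCC5 may have been split or dropped in the authors' counting and its level is uncertain.

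The 10 BER glycosylases were divided, with 5 above and 5 below the control and a median log2 fold change of 0.00. UNG, which removes uracil, was the only glycosylase whose groups did not overlap (chr12:109097574-109110992). It measured 102, 90.2 and 101 CPM in CAD-KO2+IR and 106, 115 and 117 CPM in sgVec+IR, and all 3 CAD-KO2+IR libraries were lower, by a narrow margin. UNG had a log2 fold change of -0.20 (SE 0.148, adjusted p = 1 in edgeR), with a 95% interval of -0.55 to 0.15. In the fit of 2 against 2 the log2 fold change was -0.11.

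TDG, which removes thymine and oxidized methylcytosine opposite guanine, was above 0 in each fit that left out a library, from 0.08 to 0.41 on the log2 scale. Its levels were 64.1, 79.7 and 63.5 CPM in CAD-KO2+IR and 51.5, 52.5 and 76.9 CPM in sgVec+IR. With all libraries TDG had a log2 fold change of 0.20 (SE 0.22), with 0.41 without sgVec+IR replicate 3 (adjusted p = 0.407 in edgeR) and 0.30 in the fit of 2 against 2 (adjusted p = 0.00651 in edgeR). SMUG1, a further uracil glycosylase, had a log2 fold change of -0.01, and -0.30 without sgVec+IR replicate 3.

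None of the glycosylases for oxidized bases passed the test with all libraries. NTHL1, which removes oxidized pyrimidines, measured 24, 15 and 20.7 CPM in CAD-KO2+IR and 29.4, 26.6 and 11.2 CPM in sgVec+IR, and its log2 fold change was -0.18 with all libraries and -0.50 without sgVec+IR replicate 3, and in the fit of 2 against 2 it was -0.32 (adjusted p = 0.0379 in edgeR). NEIL1 and NEIL2, which act on oxidized bases in open DNA structures, had log2 fold changes of 0.02 and -0.15, and NEIL3, a relative that also unhooks cross-links, had 0.02. Without sgVec+IR replicate 3 these were -0.37, -0.14 and 0.26, and in the fit of 2 against 2 they were -0.17, -0.04 and 0.15. OGG1, which removes 8-oxoguanine, averaged 10.5 ± 2.25 CPM in CAD-KO2+IR against 14 ± 2.22 CPM in the control (SD, n = 3), a log2 fold change of -0.41 (SE 0.251, unadjusted p = 0.149 in edgeR). For OGG1 it was only -0.12 in the fit of 2 against 2 (unadjusted p = 0.409 in edgeR) and -0.11 with down-weighted libraries.

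MUTYH, which removes adenine mispaired with 8-oxoguanine, was the least abundant member. It measured 1.57, 1.95 and 0.968 CPM in CAD-KO2+IR and 1.04, 0.753 and 2.40 CPM in sgVec+IR, the groups overlapped, and its log2 fold change was 0.13 with a standard error of 0.548. Without sgVec+IR replicate 3 it was 0.74 (unadjusted p = 0.152 in edgeR), and in the fit of 2 against 2 it was 0.50. MPG, the glycosylase for alkylated purines, had the widest interval of all members, from -1.55 to 1.81 on the log2 scale. Its level was 7.37, 3.27 and 7.63 CPM in CAD-KO2+IR and 7.09, 8.83 and 0.494 CPM in sgVec+IR, the largest departure of sgVec+IR replicate 3 among the 36 genes. Its log2 fold change was 0.13, -0.39 without that library and -0.07 in the fit of 2 against 2.

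Downstream of the glycosylases, no gene for abasic sites or resealing passed the test with all libraries. APEX1, the main endonuclease for abasic sites, had the highest level per kilobase of exon among the members, at 95.1 CPM per kilobase over all libraries. It measured 196, 156 and 182 CPM in CAD-KO2+IR and 214, 215 and 113 CPM in sgVec+IR, so 2 of the control libraries were the highest and the third the lowest. For APEX1 the log2 fold change was -0.02 (SE 0.267), -0.27 without sgVec+IR replicate 3 (adjusted p = 0.441 in edgeR) and -0.18 in the fit of 2 against 2 (adjusted p = 0.0362 in edgeR). POLB, the polymerase that fills the gap, averaged 31.0 ± 2.51 CPM against 33.9 ± 8.88 CPM (SD, n = 3). Its log2 fold change was -0.12, 0.11 without sgVec+IR replicate 3 and 0.05 in the fit of 2 against 2.

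XRCC1, the scaffold that gathers the repair enzymes at a nick, and LIG3, the ligase it binds, differed in how evenly the libraries measured them. XRCC1 measured 19.9, 15.3 and 18.7 CPM in CAD-KO2+IR and 22.8, 25.5 and 3.46 CPM in sgVec+IR. LIG3 measured 44.7, 39.5 and 43.8 CPM in CAD-KO2+IR and 45.1, 46.8 and 46.5 CPM in sgVec+IR, with all 3 CAD-KO2+IR libraries below the control by a small margin. The ratio of XRCC1 to LIG3 per kilobase of exon was 1.66, 1.45 and 1.59 in CAD-KO2+IR and 1.89, 2.04 and 0.278 in sgVec+IR. The log2 fold change of XRCC1 was 0.05 (SE 0.581) and turned to -0.43 without sgVec+IR replicate 3 (unadjusted p = 0.0424, adjusted p = 0.414 in edgeR), and that of LIG3 was -0.11 (SE 0.157) in both fits. In the fit of 2 against 2, XRCC1 had -0.32 and LIG3 -0.05.

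Single-strand breaks are sensed by PARP1 and PARP2, which build chains of ADP-ribose at the nick. PARP1 averaged 529 ± 29.1 CPM in CAD-KO2+IR against 523 ± 82.6 CPM in sgVec+IR (SD, n = 3), with a log2 fold change of 0.02 and a 95% interval of -0.36 to 0.39. PARP2 had the highest log2 fold change of the 36 genes, 0.24 (SE 0.179, unadjusted p = 0.227 in edgeR). For PARP2 it was 0.15 without sgVec+IR replicate 3 and 0.10 in the fit of 2 against 2. APTX (aprataxin), which clears aborted ligation products from DNA ends, measured 64.0, 63.4 and 67.8 CPM in CAD-KO2+IR and 74.1, 71.1 and 71.4 CPM in sgVec+IR. Its groups did not overlap, and its log2 fold change was -0.15 (SE 0.147, adjusted p = 1 in edgeR), between -0.17 and -0.12 when each library was left out.

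Of the 5 translesion genes, 4 had a log2 fold change above 0 and 1 below, both with all libraries and without sgVec+IR replicate 3. The median moved from 0.12 to 0.26, but the gene below 0 was POLI with all libraries and POLH without that library. In the fit of 2 against 2 both were below 0, at -0.06 for POLI and -0.15 for POLH. POLK, which copies past bulky adducts, measured 30.1, 43.8 and 35.4 CPM in CAD-KO2+IR and 24.6, 22.2 and 47.5 CPM in sgVec+IR. Every CAD-KO2+IR library was above replicates 1 and 2 of sgVec+IR and below replicate 3. For POLK the log2 fold change was 0.21 (SE 0.328), 0.64 without sgVec+IR replicate 3 (adjusted p = 0.388 in edgeR), 0.48 in the fit of 2 against 2 (adjusted p = 0.00115 in edgeR) and 0.30 with the correction for GC content (unadjusted p = 0.021 in edgeR). Its transcript had the lowest GC content of the 36 genes, 34.7%.

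POLH, the polymerase that copies past ultraviolet lesions and a known p53 target, measured 125, 140 and 129 CPM in CAD-KO2+IR and 136, 147 and 78.0 CPM in sgVec+IR. The control libraries lay on both sides of CAD-KO2+IR, and the log2 fold change was 0.12 (SE 0.251) and turned to -0.11 without sgVec+IR replicate 3. POLI, a close relative of POLH, turned from -0.19 to 0.23, but was -0.06 in the fit of 2 against 2. REV1, the scaffold of the translesion complex, had a log2 fold change of 0.14, and REV3L, the catalytic subunit of polymerase zeta, had 0.10. Without sgVec+IR replicate 3 they had 0.26 and 0.37, and in the fit of 2 against 2 they had 0.13 and 0.14. Of the 3 members known as p53 targets, then, XPC and DDB2 were below 0 in every fit that left out a library and POLH was not.

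**Figure D3:**
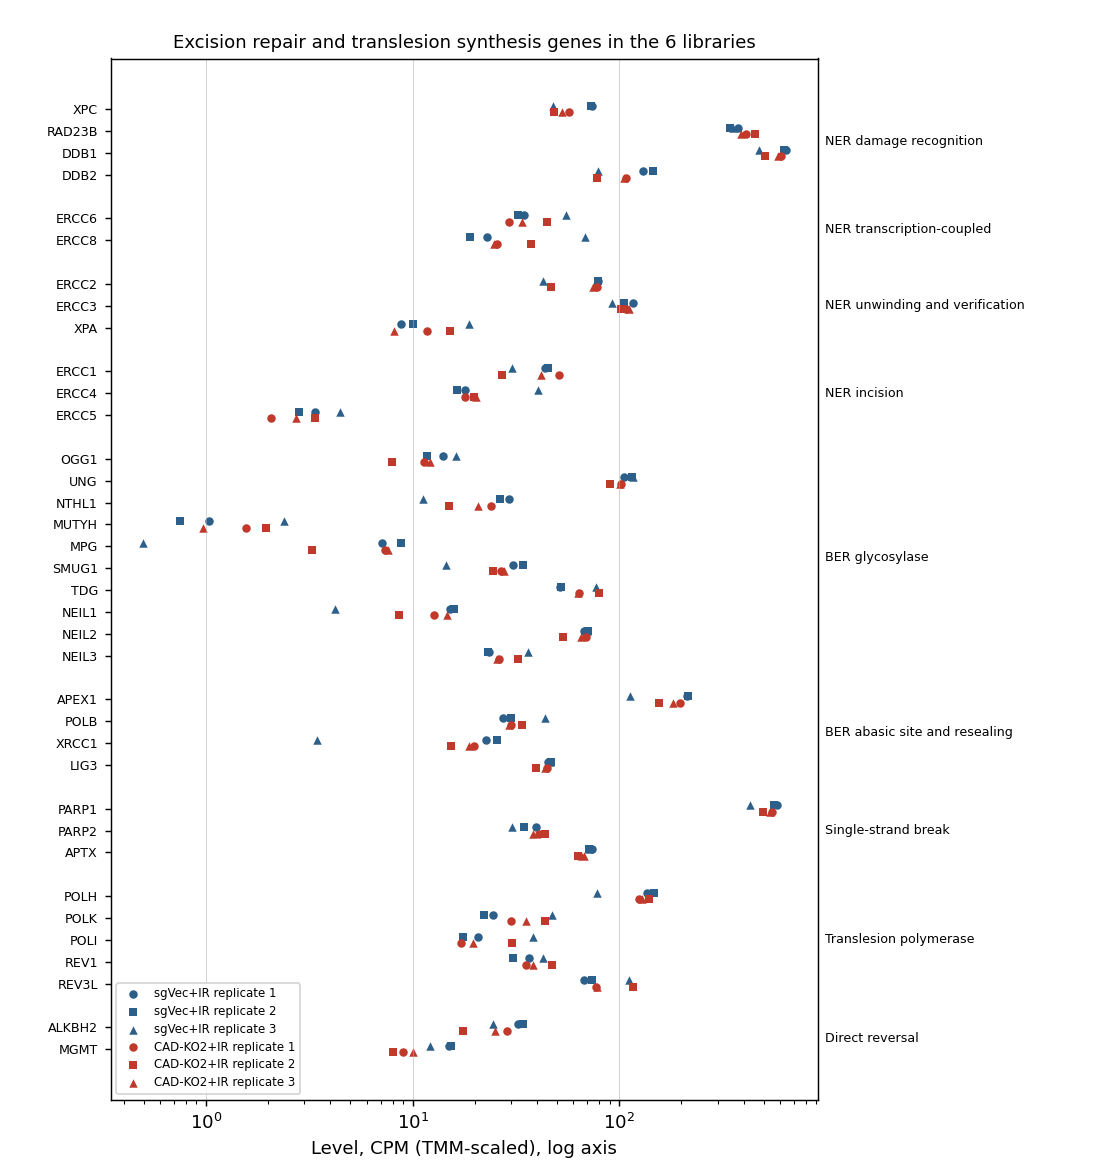
Level of each of the 36 genes in each of the 6 libraries, in CPM on a log axis, grouped by role. Colours mark the groups (blue, sgVec+IR; red, CAD-KO2+IR) and symbols the replicates; the triangle of sgVec+IR replicate 3 is far to the left for MPG, XRCC1 and NEIL1 and far to the right for ERCC8 and ERCC4.

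The 2 direct reversal genes had log2 fold changes of -0.65 (MGMT) and -0.36 (ALKBH2), and neither passed the test with all libraries (adjusted p = 1 in edgeR). MGMT (chr10:129467184-129768007) measured 9, 8.01 and 10.1 CPM in CAD-KO2+IR and 15, 15.3 and 12.1 CPM in sgVec+IR. All 3 CAD-KO2+IR libraries were below all 3 controls, and sgVec+IR replicate 3, in which the difference from replicates 1 and 2 was -0.32 on the log2 scale, was the control nearest to them. Its mean was 9.03 ± 1.03 CPM (SD, n = 3) and that of the control 14.1 ± 1.79 CPM. For MGMT the log2 fold change was -0.65 (SE 0.216, 95% interval -1.16 to -0.14), with an unadjusted p of 0.0198 and an adjusted p of 1 in edgeR, and with 0.0073 and 0.704 in DESeq2. It stayed between -0.75 and -0.57 when each library was left out. The unadjusted p was over 0.05 without either of CAD-KO2+IR replicates 1 and 2 or of sgVec+IR replicates 1 and 2. The fit of 2 against 2 gave -0.66 (adjusted p = 0.00107 in edgeR), and down-weighted libraries gave -0.63 (adjusted p = 0.00179 in limma-voom).

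ALKBH2, a dioxygenase that removes methyl groups from adenine and cytosine, measured 28.5, 17.5 and 25.1 CPM in CAD-KO2+IR and 32.3, 34.3 and 24.5 CPM in sgVec+IR. The groups overlapped only in that sgVec+IR replicate 3 fell among the CAD-KO2+IR libraries. ALKBH2 had a log2 fold change of -0.36 (SE 0.25, unadjusted p = 0.192 in edgeR), -0.31 in the fit of 2 against 2 (adjusted p = 0.0336 in edgeR) and -0.38 with the correction for GC content (unadjusted p = 0.0289 in edgeR).

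The sign of the fold change was therefore uneven in its dependence on single libraries. In the 6 fits that each left out 1 library, 15 of the 36 members kept the same sign. The 5 above 0 were RAD23B, TDG, PARP2, POLK and REV1. The 10 below 0 were XPC, DDB2, ERCC5, OGG1, UNG, NEIL2, LIG3, APTX, ALKBH2 and MGMT. Over all genes tested, 4868 of 12925 kept theirs.

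A further 69 genes of the same pathways were listed, of which 68 could be tested. Of these, 34 were above 0 and 34 below, with a median log2 fold change of 0.00. None was called and none had an unadjusted p under 0.05 in edgeR or in DESeq2, against the 2.85% and 3.21% of all genes. With down-weighted libraries 10 of the 68 had an adjusted p under 0.05 (14.7%, against 22.3% of all genes), 7 lower and 3 higher. The smallest unadjusted p in edgeR, from 0.139 to 0.211, were those of 5 genes. Their log2 fold changes were -0.61 for RPA3, a subunit of the single-strand binding protein RPA, 0.24 for USP7, a deubiquitinase, -0.28 for SMARCAL1, which remodels stalled forks, 0.26 for MNAT1, a subunit of the kinase module of TFIIH, and 0.34 for SHPRH, a ubiquitin ligase for PCNA. The 21 further NER genes tested had a median of 0.04, the 14 of BER and single-strand break repair 0.09, the 18 of translesion synthesis and tolerance -0.04, the 13 of resynthesis 0.04 and the 2 of direct reversal -0.05.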

How the data were processed

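HCT116 libraries of 2 groups were analysed, with 3 in CAD-KO2+IR and 3 in sgVec+IR. The authors extracted RNA with TRIzol and cleaned reads with fastp. They deposited counts of reads for each gene, made with featureCounts (version 1.5.0-p3) and not normalized. The aligner, the annotation and the strand setting are not given in the sources used here. The labels name a mouse build and genomic DNA, but the gene identifiers are human and the protocol describes RNA. In GENCODE, 24 of the 36 members share exon sequence with another gene, mostly on the opposite strand, MGMT among them, and 16 share it with a gene in the table (XPC, DDB1, POLH and APEX1, for example). Without the strand setting their levels are uncertain.

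Counts were tested in R 4.3.3 with edgeR 4.0.16 (filterByExpr with a minimum count of 10 and a minimum total of 15, TMM, quasi-likelihood fit with legacy set to FALSE). Alternatives were DESeq2 1.42.0, limma 3.58.1 (voom, with and without sample weights), other normalizations and filters, the replicate block and leaving out each library. A correction for GC content (lowess, span 0.3) and the fit of 2 against 2 were chosen after seeing the data. Scripts were tested on simulated data that held no outlying library and no trend with GC content. The sample weights and the fit of 2 against 2 were not part of that test. Positions, exon lengths (the union of exons) and GC content came from GENCODE release 29 on GRCh38, which matched 19823 of 20020 identifiers. RefSeq promoters matched 33 of 36 members, without NEIL2, POLB and SMUG1.

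The members and lists were chosen with earlier results of these data known. All 36 members are named, with every library's value for those with an unadjusted p under 0.05 or groups that do not overlap, for XPC, DDB2 and POLH, and for the most and least abundant. Further members were given in full after their values were seen. Of the other pathway genes, the 5 with the smallest p are named.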

Additional observations from a re-analysis of the deposited data

How the results depend on the processing

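The count of 0 members called in edgeR, where 1 had an unadjusted p under 0.05, was also 0 under every alternative but 2: it was 1, MGMT, with limma-voom and sample weights and 1 in the fit of 2 against 2. Members with an unadjusted p under 0.05 numbered 14 with sample weights, 5 with the correction for GC content, 13 in 2 against 2, and from 0 to 6 when each library was left out (6 without sgVec+IR replicate 3 and 0 without CAD-KO2+IR replicate 1 or 2 or sgVec+IR replicate 1 or 2). Members whose groups did not overlap numbered 6 or 7 when any library but sgVec+IR replicate 3 was left out (16.7% or 19.4%, against 13% to 20% of all genes), 22 without that library (61.1%, against 45.7%) and 24 in 2 against 2 (66.7%, against 57.3%). This count was not recomputed for the other tools, the block or the GC correction. Over all genes, the 4 called became 47 with DESeq2, 0 with limma-voom, 666 with sample weights, 42 with the GC correction, 440 in 2 against 2, and 0 to 22 when a library was left out (22 without sgVec+IR replicate 3). The causes were not tested. MGMT kept its direction in all of these. With the replicate number as a block (the replicate block), 0 members and 0 of all genes were called, and 0 members (1.13% of all genes) had an unadjusted p under 0.05. Whether the numbers pair the samples could not be decided from the levels. Deviations of same-numbered libraries from their group means correlated at 0.468, -0.545 and -0.379. In groups of 3 such values follow the libraries that stood apart: CAD-KO2+IR replicate 2 and sgVec+IR replicate 3 correlated at 0.552. With 3 libraries a group, the 95% interval limited only 8 of the 36 members to a change under 1.5-fold either way, and 2426 of all 12925 genes tested.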
